A study of Mus musculus with 16 samples.

Results

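*Ntrk3*, *E430016F16Rik* and *Nfia* are 3 mouse genes whose RNA was followed across thymocytes with and without *Tox4*. They are 3 of the 24984 genes counted in CD4+CD8+ double-positive (DP) thymocytes and of the 24974 genes counted in CD8 thymocytes. *Ntrk3* and *Nfia* were chosen on measured values, since both were among the genes called higher in CD8 thymocytes without *Tox4* and *Ntrk3* also in DP thymocytes without it. Their values in those comparisons are therefore given as a description with no p-value. *E430016F16Rik* was added because it lies just upstream of *Ntrk3* on the same strand, and no measured value was used to pick it.

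The libraries were poly(A)-selected, strand-specific RNA-seq libraries of sorted bulk cells from mice. DP thymocytes came from 3 control samples of genotype Tox4;F/F and 3 conditional knockout (cKO) samples of genotype Tox4;F/F;Lck+. CD8 thymocytes, sorted as TCRβ+CD8+ per the study's text, came from 5 control samples of genotype Tox4;F/F and 5 cKO samples of genotype Tox4;F/F;Lck-cre. Floxed alleles, with loxP sites around exons 4 to 6 of *Tox4* and made on a C57BL/6 background, were present in both genotypes, and the controls carried no Cre. Cre was driven by the proximal *Lck* promoter, so deletion began in earlier thymocytes and not in the sorted stage alone. Mice were 6 to 8 weeks old and matched by sex within litters, per the methods. The counts on genes added up to between 16524506 and 18484568 per library in DP control, 14583336 and 25981683 in DP cKO, 9420085 and 13530783 in CD8 control, and 8514135 and 11828492 in CD8 cKO. The cell types were sequenced as separate experiments, so cell type and experiment cannot be told apart in any comparison between them.

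*Ntrk3* encodes TrkC, the receptor tyrosine kinase for neurotrophin-3, best known from sensory neurons and from the heart. Ligand binding turns on the Ras-MAPK, PI3K-Akt and phospholipase C gamma routes, and without ligand TrkC has been described as a dependence receptor whose cleaved fragment leads to cell death through mitochondria. *Nfia* encodes nuclear factor I-A, one of a family of DNA-binding proteins that recognise a TTGGC half-site and that is best known for the switch from neurons to glia and, in blood formation, for the choice between red cells and granulocytes. *E430016F16Rik* is a gene of unassigned function.

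Some libraries stood apart or went against their labels. In CD8 control replicate 1, 17741 genes had at least 1 count, against 13708 to 14194 in the other CD8 controls and 13788 to 15054 in CD8 cKO. *Tox4* itself, in CPM (counts scaled for library size with edgeR's TMM factors), stood at 149, 165 and 175 CPM in DP controls and at 128, 135 and 129 CPM in DP cKO. All DP cKO samples were below all DP controls, and the log2 fold change from the edgeR fit was -0.32, with a standard error (SE) of 0.11 and an adjusted p of 0.381. In CD8 thymocytes *Tox4* stood at 199, 191, 204, 207 and 183 CPM in controls and at 173, 189, 178, 237 and 168 CPM in cKO. The library labelled CD8 cKO replicate 4 was above every CD8 control and the groups overlapped (log2 fold change -0.06, SE 0.10, edgeR adjusted p 0.979). Counts are summed over the whole gene, including exons outside the floxed ones, and therefore do not measure the deletion itself. The members' values in CD8 thymocytes, and those of lists where stated, are given with these 2 libraries and without them, a choice made for the pair after the data were seen.

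The labelled cell types were checked against marker genes. The 8 DP markers summed to between 13148 and 16105 CPM in DP controls and between 2426 and 2686 CPM in CD8 controls, with *Rag1* and *Cd8a* the most abundant of them in the respective cell type. The 10 markers of CD8 single-positive thymocytes summed to between 5350 and 7454 CPM in CD8 controls and between 3622 and 4177 CPM in DP controls. No marker of either list was at 0 in any group. The CD8 libraries numbered 1 and 2, of both genotypes, had more of the DP markers *Cd4*, *Rag1* and *Rag2* than every other CD8 library, while *Cd8a*, *Cd8b1* and *Cd1d1* overlapped. *Cd4* stood at 61.6, 66.4, 6.02, 3.67 and 10.5 CPM in CD8 controls and at 68.4, 77.7, 6.38, 5.88 and 7.28 CPM in CD8 cKO. *Rag1* stood at 93.0, 122, 22.3, 12.1 and 15.6 CPM in CD8 controls and at 78.8, 99.1, 24.6, 34.7 and 23.4 CPM in CD8 cKO. The part of DP transcripts in the CD8 levels of the members was not tested. Of the markers of erythroid cells, the globin genes *Hba-a1*, *Hba-a2*, *Hbb-bs* and *Hbb-bt* were at 0 in every group. *Gata1* of the same list had means of 3.96 CPM in CD8 control and 5.16 CPM in CD8 cKO.

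*Ntrk3* and *E430016F16Rik* are neighbours on chromosome 7 of mm10. *Ntrk3* runs from 78192114 to 78577838 on the minus strand and is counted over 19 exon blocks of 5170 bases in all. *E430016F16Rik* runs from 78581066 to 78718220 on the minus strand and is counted over 11 blocks of 3091 bases. The near end of *E430016F16Rik* lies 3227 bases upstream of the start of *Ntrk3*, so a transcript of the first would run toward the second. *Nfia* lies on chromosome 4 from 97581943 to 98118876 on the plus strand and is counted over 12 blocks of 9643 bases.

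The GENCODE vM21 annotation draws the chromosome 7 locus differently, as a single *Ntrk3* gene from 78175959 to 78738012 with 20 transcripts and no gene named *E430016F16Rik*. Of these transcripts, 13 touch only exon blocks counted here as *Ntrk3* and 3 touch only those counted as *E430016F16Rik*. Another 2 touch both, of which 1 is protein-coding, and 2 touch neither. The transcript Ntrk3-218 has 11 exons and the same ends as *E430016F16Rik*. Fragments that join exons of the 2 counted genes could therefore exist, and the sources used here do not say how they were counted. A count per gene also does not separate the kinase form of TrkC from the truncated forms.

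**Figure D1:**
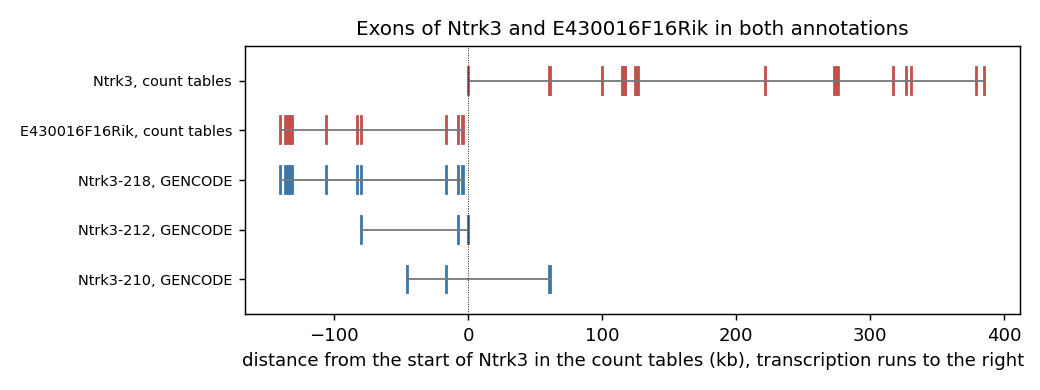
Exons (vertical marks) of *Ntrk3* and *E430016F16Rik* as counted and of 3 GENCODE transcripts, by distance in kb from the counted start of *Ntrk3*, with transcription running to the right. The 19 blocks of *Ntrk3* begin 3227 bases downstream of the last of the 11 blocks of *E430016F16Rik*, and Ntrk3-212 and Ntrk3-210 hold exons of both.

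All 3 members are long genes with a small exonic share. *Ntrk3* spans 385725 bases, *E430016F16Rik* 137155 bases and *Nfia* 536934 bases, against a median of 20821 bases over the 12115 genes tested across all samples. They stood at percentiles 99.1, 93.8 and 99.6 of span among those genes. *Tox4*, with 16364 bases, stood at percentile 42.4.

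The promoters are shown because *Nfia* encodes a DNA-binding protein whose half-site can be looked for in them. RefSeq promoter windows, on GRCm38.p6 from 250 bases before to 50 bases after the start, were found for 2 of the 3 members and not for *Ntrk3*. The window of *E430016F16Rik* is chr7:78718171-78718470 on the minus strand and that of *Nfia* is chr4:97581693-97581992 on the plus strand, each 300 bases read 5′ to 3′ with NFI half-sites in capitals. In GENCODE vM21 the most upstream *Nfia* transcript starts at 97772734, downstream of this window.

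E430016F16Rik: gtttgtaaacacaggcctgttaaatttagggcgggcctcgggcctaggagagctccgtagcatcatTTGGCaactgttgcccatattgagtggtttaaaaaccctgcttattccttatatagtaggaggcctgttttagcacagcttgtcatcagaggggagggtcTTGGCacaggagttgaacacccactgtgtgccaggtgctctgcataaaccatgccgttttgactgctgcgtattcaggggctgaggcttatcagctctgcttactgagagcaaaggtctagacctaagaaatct

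Nfia: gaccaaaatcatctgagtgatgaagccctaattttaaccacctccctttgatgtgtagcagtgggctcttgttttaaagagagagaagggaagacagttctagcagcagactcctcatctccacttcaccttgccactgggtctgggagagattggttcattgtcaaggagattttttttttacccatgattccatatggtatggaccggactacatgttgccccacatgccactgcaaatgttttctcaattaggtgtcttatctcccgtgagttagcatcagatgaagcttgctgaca

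The NFI half-site, TTGGC or GCCAA on the other strand, occurred 2 times on the forward strand of the *E430016F16Rik* window, at -184 and -84 from the start, and not in the *Nfia* window. It was found in 15344 of all 32851 promoter windows of the same length, or 46.7%. A RUNX motif, TGTGGT or ACCACA, was in neither window and in 5506 of all windows, or 16.8%. Both motifs were chosen after expression values were known, and a match describes letters and not a bound site.

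*Ntrk3*, the receptor, was counted in every library. In DP controls it stood at 17.5, 14.4 and 18.1 CPM and in DP cKO at 38.7, 36.7 and 41.2 CPM. In CD8 controls it stood at 19.2, 24.1, 21.6, 24.9 and 20.2 CPM and in CD8 cKO at 33.4, 29.7, 39.3, 33.7 and 37.6 CPM. In both cell types the lowest cKO library was above the highest control. The counts behind these levels ran from 175 in CD8 control replicate 1 to 1065 in DP cKO replicate 3. In a bulk sample, more cells with a transcript and more of it per cell cannot be told apart, which holds for every level given here.

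*Nfia*, the transcription factor, was also counted in every library. In DP controls it stood at 20.4, 16.9 and 21.1 CPM and in DP cKO at 26.6, 21.6 and 18.2 CPM. In CD8 controls it stood at 19.4, 21.1, 17.7, 17.9 and 14.7 CPM and in CD8 cKO at 30.5, 29.1, 32.6, 36.7 and 33.6 CPM. Every CD8 cKO sample was above every CD8 control, whereas the DP groups overlapped because DP cKO replicate 3 lay within the range of the controls.

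*E430016F16Rik*, the upstream gene, was far lower in CD8 than in DP thymocytes. In DP controls it stood at 22.1, 9.80 and 13.5 CPM and in DP cKO at 26.7, 25.4 and 19.2 CPM. In CD8 controls it stood at 2.09, 2.70, 1.33, 0.659 and 1.12 CPM and in CD8 cKO at 2.09, 3.55, 2.85, 0.823 and 4.58 CPM. The groups overlapped in both cell types, in DP because control replicate 1 was above cKO replicate 3. In CD8 libraries these levels rest on 7 to 41 counts each. The 2 highest of the controls were replicates 2 and 1, those with the most *Cd4*, and of the cKO libraries replicates 5 and 2.

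**Figure D2:**
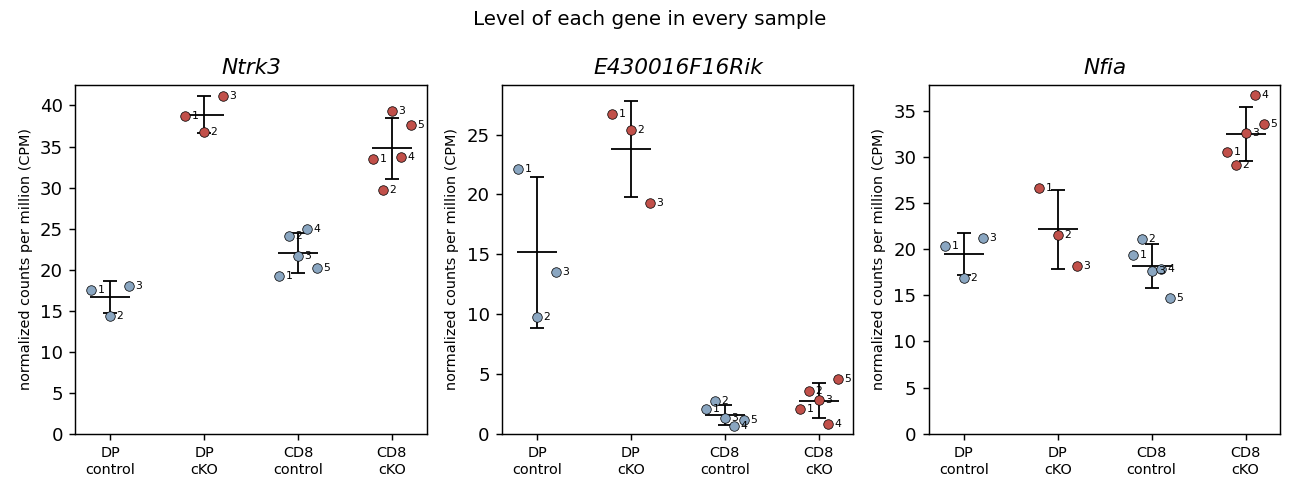
Level in CPM (y axis) of *Ntrk3*, *E430016F16Rik* and *Nfia* in the 16 libraries, by cell type and genotype, with a point per library numbered by replicate and a line at the group mean with bars of 1 SD. Every cKO point lies above every control point for *Ntrk3* in both cell types and for *Nfia* in CD8. The groups of *Nfia* in DP and of *E430016F16Rik* in both cell types overlap.

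Between genes, levels were compared per length in TPM, which divides counts by exonic length and scales them to one total, with SD over samples. *Ntrk3* was highest in CD8 cKO at 21.9 ± 3.19 TPM (n = 5) and DP cKO at 21.6 ± 0.811 TPM (n = 3), which did not differ beyond their spread, then CD8 control at 13.5 ± 1.59 TPM (n = 5) and DP control at 9.54 ± 1.33 TPM (n = 3). *Nfia* was highest in CD8 cKO at 10.9 ± 1.07 TPM (n = 5). Its other groups, DP cKO at 6.65 ± 1.62 TPM (n = 3), DP control at 5.98 ± 0.817 TPM (n = 3) and CD8 control at 5.96 ± 0.884 TPM (n = 5), overlapped. *E430016F16Rik* stood at 22.3 ± 4.93 TPM (n = 3) in DP cKO and 14.7 ± 6.83 TPM (n = 3) in DP control, which overlapped. It stood at 2.98 ± 1.66 TPM (n = 5) in CD8 cKO and 1.63 ± 0.874 TPM (n = 5) in CD8 control, which overlapped as well. Of the 3 members, only *E430016F16Rik* had both groups of a cell type above both groups of the other.

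The ratio of *Ntrk3* to *E430016F16Rik*, taken within each library from TPM, separated the cell types. It lay between 0.473 and 0.879 in DP control and between 0.865 and 1.28 in DP cKO. In CD8 control it lay between 5.32 and 22.6 and in CD8 cKO between 4.91 and 24.5. The genotypes overlapped within each cell type, while no DP library reached the range of the CD8 libraries. Per length, *Ntrk3* was the higher of the neighbours in all 10 CD8 libraries and in 1 of 6 DP libraries, DP cKO replicate 3.

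The comparison of cKO with control asks what loss of *Tox4* changes in each cell type. A gene was called when edgeR's adjusted p was under 0.05, the fold change at least 1.5 and the mean level at least 1 TPM. In CD8 thymocytes 2 of the 3 members, *Nfia* and *Ntrk3*, were called higher, where 0.0891% of all 11227 genes tested were, and that is how both were chosen. *Nfia* differed by a log2 fold change of 0.84 (SE 0.12) and *Ntrk3* by 0.66 (SE 0.12). *E430016F16Rik*, which was not chosen on a value, differed by 0.82 with a 95% interval of -0.14 to 1.78 (edgeR adjusted p 0.954) and overlapping groups. Its estimate was close to those of the other 2 members, with an SE of 0.45.

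The CD8 values kept their direction without the libraries that stood apart. Without CD8 control replicate 1 the log2 fold change was 0.87 for *Nfia*, 0.62 for *Ntrk3* and 0.94 for *E430016F16Rik*, and without CD8 cKO replicate 4 it was 0.79, 0.67 and 1.04. With both left out it was 0.82, 0.63 and 1.16. Without the CD8 samples numbered 1 and 2 it was 1.05, 0.74 and 1.41 (edgeR adjusted p 0.430 for *E430016F16Rik*), a fit added after the data were seen. The call was less steady than the size of the change. *Ntrk3* was called in 0 of the 10 edgeR fits that left out 1 library, with log2 fold changes of 0.61 to 0.71, and *Nfia* in 9 of the 10, with 0.77 to 0.91. *E430016F16Rik* was called in 0 of the 10, with 0.58 without CD8 cKO replicate 5 to 1.11 without CD8 control replicate 2. The exception for *Nfia* was the fit without CD8 control replicate 3, where its log2 fold change was 0.84.

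In DP thymocytes 1 of the 3 members, *Ntrk3*, was called higher, where 0.0851% of all 11748 genes tested were, and this comparison too was used to choose it. Its log2 fold change was 1.22 (SE 0.14). *E430016F16Rik* differed by 0.65 with a 95% interval of 0.02 to 1.29 (edgeR adjusted p 0.522, groups overlapping). *Nfia* differed by 0.19 with a 95% interval of -0.22 to 0.59 (edgeR adjusted p 0.833, groups overlapping). *Ntrk3* kept a log2 fold change of 1.13 to 1.27 when 1 library was left out, and was called in 2 of these 6 fits, those without DP control replicate 1 or DP cKO replicate 1. *E430016F16Rik* ranged from 0.42 without DP control replicate 2 to 1.03 without DP control replicate 1 and was called in none, with edgeR adjusted p of 0.189 to 0.764. *Nfia* ranged from 0.028 without DP cKO replicate 1 to 0.33 without DP cKO replicate 3 and was called in none either. Whether the change of any member differs between CD8 and DP thymocytes was not tested.

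The control groups alone compare the cell types, and this contrast had no part in choosing the members. *E430016F16Rik* was lower in CD8 than in DP controls, at -3.24 on the log2 scale (SE 0.38, edgeR adjusted p 1.87e-05), with all 5 CD8 samples below all DP samples. It was the 1 member called lower, where 22.3% of all 11758 genes tested were. *Ntrk3* was higher by 0.43 (SE 0.15, edgeR adjusted p 0.0233), above all DP controls in 5 of 5 CD8 samples, and was not called because its fold change of 1.35 was under the threshold, where 22% of genes were called higher. That adjusted p depended on single libraries, at 0.109 (log2 fold change 0.34) without DP control replicate 2 and 0.0519 (0.39) without CD8 control replicate 4, in a range of 0.0129 to 0.121 over the alternatives. *Nfia* differed by -0.08 with a 95% interval of -0.41 to 0.26 (edgeR adjusted p 0.685). Without CD8 control replicate 1 the values were -3.35 for *E430016F16Rik*, 0.48 for *Ntrk3* and -0.09 for *Nfia*, and without the CD8 samples numbered 1 and 2 they were -3.83, 0.45 and -0.19. *Xist* stood at 3382 to 5142 CPM in the CD8 libraries numbered 1, 2 and 5 of both genotypes. In those numbered 3 and 4 it stood at 0.188 to 29.5 CPM, the highest being CD8 cKO replicate 4 with 251 counts. CD8 control replicates 3 and 4 and CD8 cKO replicate 3 had 3, 2 and 3 counts of *Xist*. In all DP libraries *Xist* stood at 0.210 to 0.626 CPM. Without the 3 CD8 controls that had it, a fit added after the data were seen, the values were -3.90, 0.52 and -0.10.

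**Figure D3:**
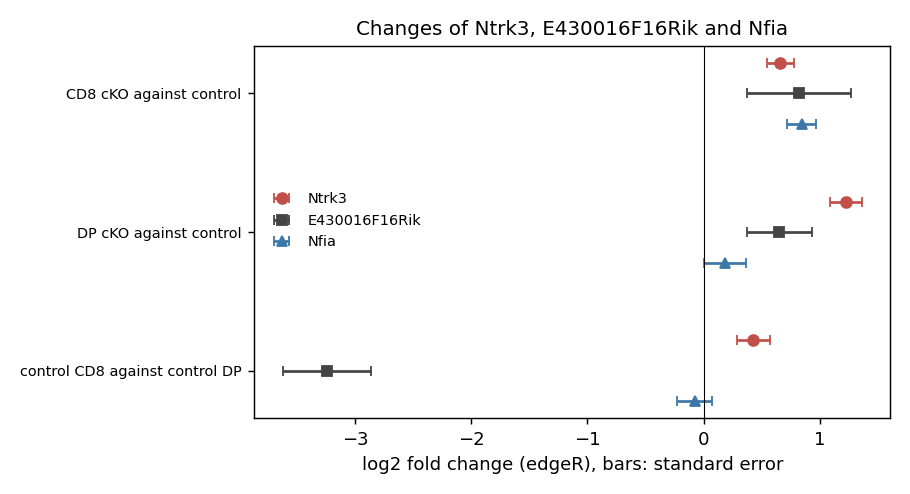
Log2 fold change (x axis) of each member in the 3 comparisons, with bars of 1 standard error from edgeR. *Ntrk3* is at 1.22 in DP and 0.66 in CD8 thymocytes, *Nfia* at 0.84 in CD8 and 0.19 in DP, and *E430016F16Rik* at -3.24 between the control groups.

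TrkC is 1 of 13 genes in a list of neurotrophins and their receptors, of which only 4 had enough counts to be tested, *Ntrk3*, *Sort1*, *Sorcs2* and *Ptprs*. *Ntrk3*, which was chosen for being called, was the only one called in CD8 and in DP thymocytes, beside 0.0891% and 0.0851% of all genes called higher. The median log2 fold change of the other 3 was 0.10 in CD8 and 0.35 in DP, against -0.01 and -0.00 over all genes tested. Without CD8 control replicate 1, CD8 cKO replicate 4 or both, none of the 4 was called in CD8, and the medians of the other 3 were 0.10, 0.15 and 0.19. Without the samples numbered 1 and 2 their median was 0.0079. In the control contrast none of the 4 was called and their median was 0.12, against -0.01 over all genes.

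*Ntf3*, which encodes neurotrophin-3, the ligand of TrkC, had 2 counts in CD8 control replicate 1, 2 in CD8 cKO replicate 2 and 0 in the other libraries. *Bdnf*, the ligand of TrkB, had 6 counts in CD8 control replicate 1 and 0 elsewhere. *Ntrk2*, which encodes TrkB, had at most 8 counts in a library, in CD8 control replicate 1. *Ntrk3* was thus counted in every library, whereas its ligand gene was not above 2 counts in any. Neurotrophin made by other cells of the thymus was not measured in these sorted cells.

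*Ptprs*, a receptor phosphatase that binds TrkC at synapses, was the most abundant gene of the list at 97.5 ± 5.12 TPM (SD, n = 3) in DP control. It was higher in DP cKO by 0.35 (SE 0.13, edgeR adjusted p 0.440), with all 3 cKO samples above all controls. *Sort1*, a sorting receptor for neurotrophins, differed by -0.20 in CD8 and -0.15 in DP (edgeR adjusted p 0.979 and 0.884), with overlapping groups.

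**Figure D4:**
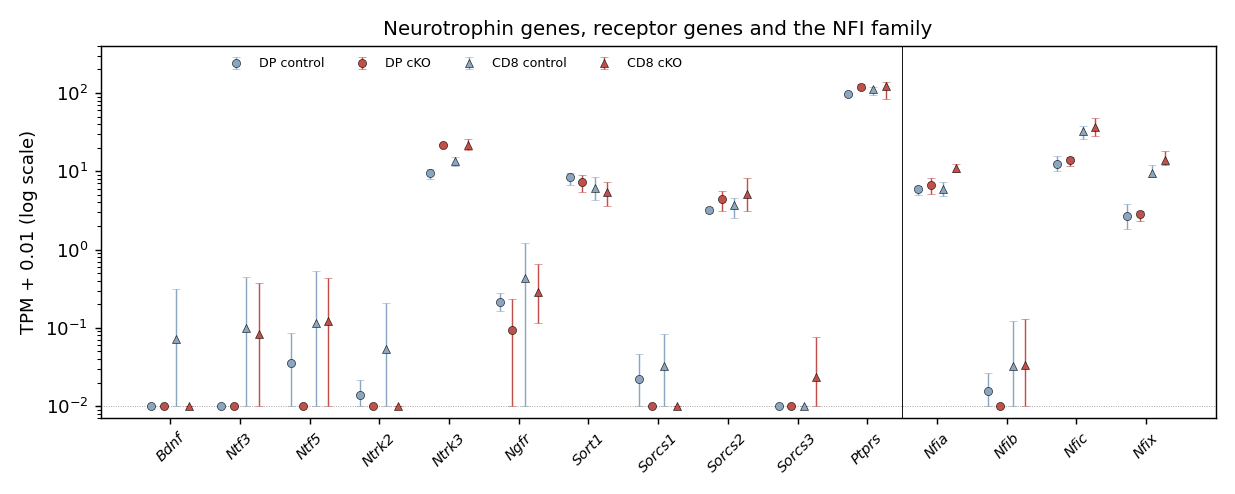
Mean level in TPM plus 0.01 on a log axis, with bars from the lowest to the highest sample, of neurotrophin genes, receptor genes and the NFI family in the 4 groups. *Ptprs* is the highest of the receptors drawn, *Ntrk3* is far above *Ntrk2*, and *Nfib* is near 0 where *Nfia*, *Nfic* and *Nfix* are counted.

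Downstream of Trk receptors, 27 of 32 adaptors and effectors were tested in CD8 thymocytes and 30 in DP thymocytes. By edgeR 0 of them were called in either cell type, and by DESeq2 0 as well, with 1 of the 27 in CD8 (*Pik3ca*) and 1 of the 30 in DP (*Nras*, -0.43, edgeR adjusted p 0.346) under an unadjusted p of 0.05. Of all genes tested, 5.6% in CD8 and 9.18% in DP were under it, the shares to set beside the later counts of this kind. Their median log2 fold change was 0.05 in CD8 and -0.00 in DP, against -0.01 and -0.00 over all genes. Under upper-quartile scaling the DP medians turned to 0.02 for the list and 0.01 for all genes. In the control contrast, where 22% of all genes tested were called higher and 22.3% lower, 4 of 27 were called higher (*Sos1*, *Sh2b3*, *Sos2* and *Mapk3*) and 4 lower (*Hras*, *Akt1*, *Crk* and *Map2k2*).

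Among 19 dependence receptors, a class in which TrkC has been placed, 8 were tested. In CD8 thymocytes the 1 called higher, beside 0.0891% of all genes, was *Ntrk3*, which was chosen on that comparison, and the median of the other 7 was 0.06. Without CD8 control replicate 1, CD8 cKO replicate 4 or both, 0 were called and the median of the other 7 was 0.08, 0.01 and 0.04. In DP thymocytes 2 were called higher, *Ntrk3* and *Notch3*, beside 0.0851% of all genes, and 0 lower, with a median of 0.02 without *Ntrk3*. DESeq2 called *Igf1r* as well in DP (edgeR -0.89, adjusted p 0.0678). *Notch3*, a receptor of the Notch pathway, was higher in DP cKO by 1.01 (SE 0.14, edgeR adjusted p 0.0415), at 121, 125 and 102 CPM in controls and 249, 197 and 256 CPM in cKO.

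All 9 genes of a list around death signalling by TrkC fragments were tested, and by edgeR 0 were called in CD8 or in DP thymocytes. DESeq2 called 0 in CD8 and 1 in DP, *Bcl2*. At an unadjusted p of 0.05, 1 gene passed in each, *Apaf1* in CD8 (0.31, edgeR adjusted p 0.808, groups overlapping) and *Bcl2* in DP (-0.67, edgeR adjusted p 0.129, all 3 cKO samples below all controls). The list medians were 0.03 and 0.02, and the CD8 median was 0.10 without CD8 control replicate 1, 0.03 without CD8 cKO replicate 4, 0.10 without both and 0.13 without the samples numbered 1 and 2. Between the control groups 1 of the 9 was called higher in CD8, *Bcl2* (2.70), beside 22% of all genes, and 5 lower, beside 22.3%, the farthest *Bcl2l1* (-2.69).

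*Nfia* is 1 of 4 NFI genes, of which 3 were tested. In CD8 thymocytes the 1 called, beside 0.0891% of all genes called higher, was *Nfia*, which was chosen for it, with *Nfix* at 0.51 (SE 0.16, edgeR adjusted p 0.479) and *Nfic* at 0.13 (SE 0.15, edgeR adjusted p 0.979). Without CD8 control replicate 1, CD8 cKO replicate 4 or both, *Nfia* remained the 1 called. *Nfix* stood at 26.4, 19.4, 19.1, 20.1 and 18.4 CPM in CD8 controls and 26.6, 30.5, 25.9, 40.8 and 23.0 CPM in CD8 cKO. The groups of *Nfix* overlapped through CD8 control replicate 1.

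In DP thymocytes 0 of the 3 NFI genes were called by edgeR or DESeq2 and 0 had an unadjusted p under 0.05, with log2 fold changes of 0.11 to 0.23. Between the control groups *Nfix* and *Nfic* were called higher in CD8, by 1.77 (edgeR adjusted p 7.02e-05) and 1.33 (edgeR adjusted p 2.74e-05), while *Nfia* differed by -0.08, beside 22% of all genes called higher. *Nfib* had at most 4 counts in a library. By level per length, *Nfic* was the highest NFI gene in CD8 controls at 32.7 ± 4.69 TPM (SD, n = 5), followed by *Nfix* at 9.63 ± 1.42 TPM and *Nfia* at 5.96 ± 0.884 TPM. Control DP thymocytes had *Nfic* at 12.4 ± 3.01 TPM (SD, n = 3), *Nfia* at 5.98 ± 0.817 TPM and *Nfix* at 2.67 ± 1.02 TPM, so *Nfia* ranked above *Nfix* there and below it in CD8 controls.

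Genes known to work with or under *Nfia* in glia, of which 2 of 6 were tested in CD8 and 3 of 6 in DP thymocytes, had 0 called by edgeR or DESeq2 in either, none of them under an unadjusted p of 0.05. Their medians were -0.02 and 0.22, and the CD8 median turned to 0.08 without CD8 control replicate 1, 0.08 without CD8 cKO replicate 4 and 0.18 without both, and was -0.14 without the samples numbered 1 and 2. *Cdkn1a*, which encodes the cell cycle inhibitor p21 and has been reported under *Nfia* in p53 signalling, was higher in CD8 cKO by 1.55 (edgeR adjusted p 0.126) and in DP cKO by 1.42 (edgeR adjusted p 0.245), above every control in 5 of 5 and 3 of 3 samples. It was called by edgeR in neither and by DESeq2 in both. *Trp53* differed by -0.01 and 0.03 (edgeR adjusted p 0.999 and 0.968), and the 2 of 3 genes tested on that list had medians of 0.77 in CD8 and 0.72 in DP.

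By edgeR and by DESeq2, 0 of the neighbours tested were called between genotypes, 8 in CD8 and 9 in DP thymocytes, of which 0 and 2 were under an unadjusted p of 0.05, beside 5.6% and 9.18% of all genes. Around *Ntrk3* and *E430016F16Rik*, *Mrpl46*, *Mrps11*, *Det1*, *Aen*, *Isg20* and *Mfge8* lie within 500000 bases and were tested in both cell types, while *Gm26633*, *Hapln3* and *Mir7-2* were too low to test. *Acan*, tested between genotypes in DP only, was higher there by 0.55 (edgeR adjusted p 0.340), with all 3 cKO samples above all controls. Near *Nfia*, *Patj* differed by -0.20 in CD8 and -0.34 in DP, and *Tm2d1* by -0.22 in CD8 and -0.54 in DP (edgeR adjusted p 0.346, all 3 cKO samples below all controls). *E130114P18Rik*, which overlaps the start of *Nfia* on the other strand, had 0 counts in every library, which allows up to 0.116 to 0.353 CPM per library at 3 counts, for counting error only.

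Of the 165 genes tested in CD8 thymocytes with a span of at least 300 kb, the 2 called higher, beside 0.0891% of all genes, were *Nfia* and *Ntrk3*, which were chosen for being called, with 0.04 as the median of the class on the log2 scale. In DP thymocytes the 1 of 171 called, beside 0.0851% of all genes called higher, was *Ntrk3*, also chosen on that comparison, and the median was -0.02. Over 5 classes of span, the median log2 fold change ran from -0.05 in the shortest to 0.02 in the longest in CD8 thymocytes, and from 0.08 to -0.06 in DP thymocytes.

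**Figure D5:**
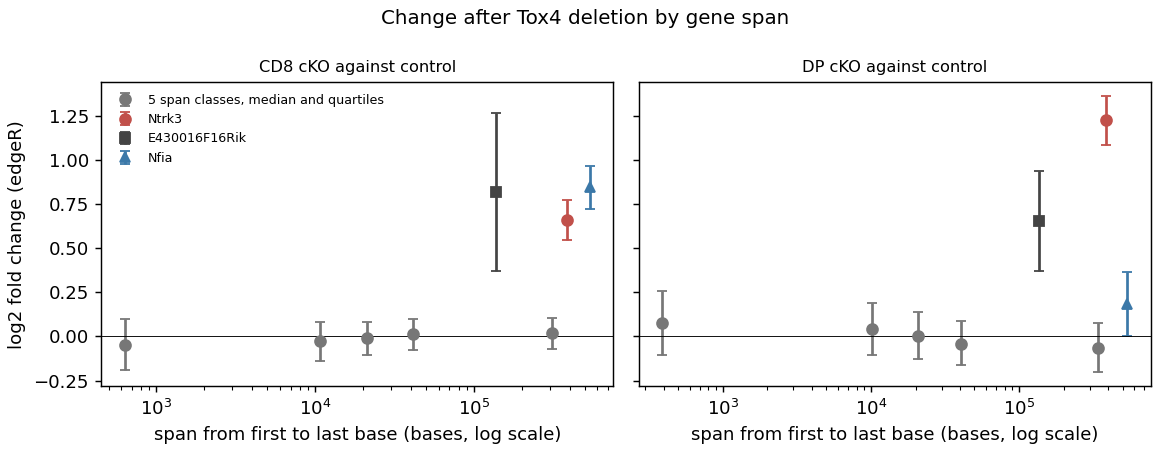
Median log2 fold change (y axis, bars from the lower to the upper quartile) of genes in 5 classes of span, placed on a log axis in bases at the geometric mean of the class limits, with the members as points with bars of 1 standard error. All 3 members lie above the upper quartile of the longest class in both cell types, *Nfia* in DP thymocytes the least at 0.19.

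Markers of other cells were compared beside the members' changes. Of 12 markers of gamma-delta and innate-like T cells, 8 were in both tables, and 1 of the 7 tested, *Cd163l1*, was called higher in CD8 cKO (1.81, edgeR adjusted p 0.00984), beside 0.0891% of all genes. It was not called without the CD8 samples numbered 1 and 2 (1.73, edgeR adjusted p 0.110), and remained called without CD8 control replicate 1, CD8 cKO replicate 4 or both, where 2, 1 and 1 of the 7 were called. Other genes of the list differed in CD8 by 1.29 (*Sox13*, edgeR adjusted p 0.203), 0.67 (*Blk*), 0.36 (*Tmem176a*), 0.09 (*Maf*) and -0.52 (*Zbtb16*). DESeq2 called *Sox13* of the list as well.

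The 7 markers of double-negative thymocytes summed to between 262 and 371 CPM in CD8 control and between 348 and 500 CPM in CD8 cKO, with *Dtx1* the most abundant. In DP thymocytes the DP markers summed to between 11753 and 14173 CPM in cKO, and those of CD8 single-positive cells to between 2825 and 3446 CPM, below the 3622 to 4177 CPM of every control. In CD8 cKO the CD8 single-positive list summed to between 5193 and 8041 CPM and the DP list to between 2150 and 2670 CPM. By edgeR 0 genes of these 3 lists were called between genotypes in either cell type, and by DESeq2 only *Ccr7* and *Itgae* of the CD8 single-positive list in DP. Those under an unadjusted p of 0.05 included *Kit* in CD8 and, in DP, *Ccr7*, *Cd8a*, *Il7r*, *Itgae*, *S1pr1*, *Il2ra* and *Kit*. In DP these 7 were all lower in cKO, from -0.45 for *Cd8a* to -1.36 for *S1pr1*, and the median of the CD8 single-positive list there was -0.63, with 1 of 10 above 0. The part of these cells in the members' changes was not tested.

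By edgeR 0 genes of the remaining lists were called between genotypes in either cell type. DESeq2 called 1, *Lyz2* in DP, and by edgeR 3 were under an unadjusted p of 0.05 in CD8 (*Gzma*, *Cd68* and *Itgax*) and 7 in DP. Natural killer markers, with *Prf1* the most abundant, summed to a median of 71.9 CPM in CD8 control and 71.8 CPM in CD8 cKO. B cell markers, with *Cd79b* the most abundant, summed to a median of 13.5 and 15.4 CPM, and myeloid and dendritic markers to 35.3 and 40.7 CPM, with *Cst3* and *Cd68* the most abundant. Thymic epithelium summed to 2.45 and 2.59 CPM, with *Epcam* the most abundant and *Psmb11* at 0 in cKO. Fibroblast and endothelial markers summed to 229 and 267 CPM, nearly all of it *Pecam1*, and erythroid markers to 4.18 and 4.90 CPM, nearly all of it *Gata1*. The medians of log2 fold changes in CD8 thymocytes differed with the libraries left out for most lists. With all libraries, without CD8 control replicate 1, without CD8 cKO replicate 4, without both and without the samples numbered 1 and 2, they were -0.12, 0.46, 0.02, 0.59 and 0.28 for B cell markers and -0.03, 0.42, -0.03, 0.31 and 0.37 for myeloid and dendritic markers. In the same order they were 0.04, 0.26, -0.12, 0.21 and 0.03 for natural killer markers and -0.25, 0.05, -0.25, 0.10 and -0.31 for fibroblast and endothelial markers. For the DP markers they were -0.10, 0.29, 0.01, 0.41 and -0.06. The markers tested differed between these fits, at 3 or 4 for B cells, 4 to 7 for myeloid and dendritic cells and 6 or 7 for DP. For these lists a change of libraries is therefore mixed with a change of genes. The medians of double-negative thymocytes were above 0 in each fit, at 0.26, 0.28, 0.23, 0.31 and 0.32. In DP thymocytes the median log2 fold change was -1.08 for the 4 B cell markers tested, -0.80 for 9 myeloid and dendritic markers and -0.75 for 3 natural killer markers. Of these, 0, 4 and 1 were above 0. *Gzma* (0.71, edgeR adjusted p 0.457) and *Cd68* (0.63, edgeR adjusted p 0.346) had all 3 cKO samples above all controls. In the same order, the summed levels of the 3 lists had medians of 23.0, 97.0 and 31.4 CPM in DP control and 19.4, 97.1 and 34.4 CPM in DP cKO. Their part in the change of *Ntrk3* in DP was not tested.

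Genes with a pattern most like each member were named by Pearson's r of log2 CPM plus 1 over the 16 libraries, among 12130 genes. These libraries share genotype and cell type, so r is a description with no p. For *Ntrk3* the 5 most alike were *Tspoap1* (r 0.888), *Pcyox1l* (r 0.873), *Pde1b* (r 0.866), *Car15* (r 0.841) and *Six5* (r 0.826). *Nfia* stood at rank 70 for *Ntrk3* (r 0.644) and *E430016F16Rik* at rank 3364 (r 0.0959).

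With the mean of each cell type subtracted, which removes the gap of *E430016F16Rik* between DP and CD8, its r with *Ntrk3* was 0.549 (rank 381), beside 0.642 for *Nfia* with *Ntrk3* (rank 190). The 5 most like *Ntrk3* were then *Casc1* (r 0.911), *Mfsd11* (r 0.898), *Fbxl22* (r 0.894), *Cdr2l* (r 0.888) and *Tspoap1* (r 0.887). *Tspoap1* was higher in cKO 7.99-fold in CD8 and 5.61-fold in DP, above every control in 5 of 5 and 3 of 3 samples, which is given with no p because it was picked from the same libraries.

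For *Nfia* the most alike over all libraries were *AI847159* (r 0.799), *Tspoap1* (r 0.795), *Gzmk* (r 0.790), *Slc3a1* (r 0.776) and *4930451G09Rik* (r 0.770). *Gzmk* was near the floor, at 0 counts in 9 of the 16 libraries and at most 10 in any. With cell type means subtracted they were *Dglucy* (r 0.900), *F13a1* (r 0.883), *Lrrc8a* (r 0.844), *Tspoap1* (r 0.805) and *Dido1* (r 0.804). *Tspoap1* was on both lists of both *Ntrk3* and *Nfia*.

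For *E430016F16Rik* the most alike were *C330026H20Rik* (r 0.976), *5830418P13Rik* (r 0.975), *Cbl* (r 0.972), *Lingo4* (r 0.972) and *Gm11944* (r 0.968), all lower in CD8 than in DP controls. With cell type means subtracted they were *C330026H20Rik* (r 0.867), *E130112N10Rik* (r 0.866), *Prr22* (r 0.852), *Lrrd1* (r 0.851) and *Nup210l* (r 0.848). It shared 0 of these genes with the lists of the other members.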

How the data were processed

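RNA-seq fragments of 16 thymocyte samples were counted by the authors with fastp 0.13.1, HISAT2 2.1.0 and featureCounts 1.6.1 in strand-specific mode on mm10, and the deposited tables hold raw counts per gene. The deposited DP table also gives the exonic length of each gene in bases, and positions and lengths for both cell types were taken from it by symbol. CPM were computed here with 1 set of TMM factors over all samples. TPM were scaled to the total of each library without TMM factors. Each comparison was fitted on its own groups in edgeR 4.0.16 under R 4.3.3, using TMM factors, filterByExpr and the quasi-likelihood F test. P-values were adjusted by Benjamini-Hochberg across every gene tested, and all 3 members passed that filter in all 3 comparisons. A call needed an adjusted p below 0.05, a 1.5-fold change and a mean of 1 TPM. Standard errors came from the fold change and the F statistic, and intervals are at 95%. The fits were tested on simulated data, and the outcome is not given here.

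The members and lists were chosen with earlier results of these data known. Named genes are the members, *Tox4*, *Xist*, the list and marker genes, genes within 500000 bases of a member, and the 5 genes most alike each member by each measure. Alternatives were RLE and upper-quartile scaling, DESeq2 1.42.0, no filter or at least 10 counts in every sample, the replicate number as a block, all 4 groups in 1 fit, each sample left out, both CD8 samples numbered 1 left out, Spearman's rho, a pseudocount of 0.1, and long genes from 100000 bases. Leaving out CD8 control 1 with CD8 cKO 4, the CD8 samples numbered 1 and 2, or the CD8 controls with *Xist*, and *Xist* as a covariate in CD8, were added after seeing the data. CD8 columns, named by genotype and number, were taken as the samples of those numbers. The marker genes *Trdc*, *Tcrg-C1*, *Tcrg-C2*, *Tcrg-C4* and *Ighm* are in neither table and were left out.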

Additional observations from a re-analysis of the deposited data

Results flagged for a closer look

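Of 22 groups of 5 samples looked at for a sample far from the others, 3 had one, where chance gives about 1 in 20. The number of genes with a count was 17741 in CD8 control replicate 1, with the nearest other control at 14194. *Nfix* in the same library stood at 26.4 CPM, with the nearest other control at 20.1 CPM. The ratio of *Ntrk3* to *E430016F16Rik* in TPM was 24.5 in CD8 cKO replicate 4, with the nearest other cKO library at 9.54, where *E430016F16Rik* had 7 counts.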

How the results depend on the processing

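The log2 fold changes of the members between genotypes kept their direction under every alternative run. For *E430016F16Rik* none with at least 10 counts in every sample could be run where CD8 samples enter. In 21 alternatives *Ntrk3* in CD8 was called in 7 and *Nfia* in 19, and *Ntrk3* in DP in 9 of 13. The count of genes called in CD8, 11 by edgeR, was 44 by DESeq2, 31 with the replicate number as a block, 5 without the CD8 samples numbered 1, 5 without those numbered 1 and 2 and 36 without CD8 control 1 and CD8 cKO 4 (both chosen after seeing the data) and 4 to 20 with 1 library left out. The count in DP, 17 by edgeR, was 159 by DESeq2, 74 with no filter, 131 with the block, 42 with all 4 groups in 1 fit, and 0 to 8 with 1 library left out. The 0 came without DP control replicate 2, where 990 genes were under an unadjusted p of 0.05 by edgeR. *Nfia* in CD8 moved to 1.05 without the CD8 samples numbered 1 and 2. *Nfia* in DP had adjusted p of 0.834 to 0.966 with 1 library left out. *Ntrk3* between the control groups was past the threshold no longer with no filter (0.41, edgeR adjusted p 0.0594) or the block (0.41, edgeR adjusted p 0.121), and ranged from 0.34 to 0.49 with 1 library left out, all in an adjusted p range of 0.0129 to 0.121. *Nfia* between the control groups turned to 0.026 with the block (edgeR adjusted p 0.922, in a range of 0.302 to 0.993). Between the control groups the block joins DP and CD8 samples of separate experiments that share only a number, and numbers 4 and 5 occur in CD8 only. The causes were not tested. Samples of the same number were not taken as pairs, since the labels name no litter for a number and the lowest correlation of deviations within a number was 0.0999 in CD8 and 0.0813 in DP, under the 0.1 asked of every pair. The mean was 0.308 and 0.382, against -0.0801 and -0.182 between numbers, and 6 of 10 CD8 and 3 of 6 DP samples correlated best with their own number. The CD8 samples of a number were alike in *Xist*, high in 1, 2 and 5 and lower in 3 and 4. Of the number 4 samples, however, CD8 cKO had 251 counts of *Xist* and CD8 control 2. With *Xist* as a covariate, added after seeing the data, *Nfia*, *Ntrk3* and *E430016F16Rik* in CD8 differed by 0.84, 0.66 and 0.82 (edgeR adjusted p 0.768 for the last). With the block *E430016F16Rik* differed by 0.79 in CD8 (edgeR adjusted p 0.563) and 0.70 in DP (0.141). Of the 5 genes most alike each member, 1 to 3 were shared with Spearman's rho. *E430016F16Rik* in CD8 rests on 7 to 41 counts per library.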
